A study of Mus musculus with 2 samples.

Results

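The genes described here carry cholesterol from its synthesis to its export from the liver cell. They are 31 genes, chosen by name from the steps of that route, of 31091 gene names on the array and 19971 measured on both arrays. There were 18 synthesis enzymes. The other 13 genes comprised 4 regulators, 1 gene of uptake, 3 of intracellular transport, 3 of esterification and 2 of efflux. RNA was hybridised to 2 one-colour Agilent arrays, 1 for livers of Pnpla8-/- mice and 1 for livers of WT (Pnpla8+/+) mice, both on the C57BL/6N strain. Pnpla8 encodes a calcium-independent phospholipase A2, and the study asked how breakdown of liver phosphatidylcholine supplies choline to the methionine cycle. Each array held a pool of equal amounts of RNA from 5 animals. The age is 6 weeks in the sample labels and 8 weeks in the series design text. The labels do not say how the allele was made, whether it acts in all tissues, or the sex of the mice. With 1 pooled array per genotype there is no replicate, no test and no p-value. Differences between animals were not measured, and genotype, pool and array position cannot be told apart.

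Liver cells build cholesterol from acetyl-CoA. Acetyl units are joined and reduced to mevalonate, mevalonate is turned into isoprenoid units, these are coupled into squalene, and squalene is closed into lanosterol, which a last set of enzymes trims to cholesterol. The transcription factor SREBP-2, made from Srebf2, switches on most of these enzymes when the endoplasmic reticulum holds little cholesterol. Scap carries the precursor to the Golgi for cleavage, and the Insig proteins hold it back when sterol is plentiful. The liver also takes up cholesterol from lipoproteins, stores it as esters, converts it to bile acids and pumps it into bile.

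All 31 genes were measured. Their 42 probes were well above background on both arrays, which means that the scanner software found the spot clearly brighter than its surroundings. No member spot was saturated or carried an outlier mark. Values are given as relative signal, the background-subtracted signal divided by the 75th percentile over the non-control spots of the same array. That percentile was 1018 for the Pnpla8-/- array and 1207 for the WT array, and 65.6% of 43020 spots on the Pnpla8-/- array and 70.1% on the WT array were well above background. Relative signals of different probes are not comparable with each other. Pnpla8 itself had 1 probe. It read a processed signal of 4.45, not well above background, on the Pnpla8-/- array and 144.5 on the WT array, which is at least 6.81-fold lower. The labels do not say which part of the gene was deleted, and a probe outside it would check nothing.

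Technical spread sets the scale for what follows. The log2 ratio of Pnpla8-/- over WT had a median SD of 0.05 between spots of 1 probe (298 probes) and of 0.09 between different probes of 1 gene (4274 genes). The error that the scanner software gives for each spot amounts to 0.20 on the log2 ratio of a typical member probe, and to 0.31 for the dimmest. That error was nearly the same for most member probes, with a lowest value of 0.204028 and a median of 0.204036. Of the 42 member probes, 16 had a log2 ratio more than 2 times that error from 0, and 14 of these were lower on the Pnpla8-/- array. The share of all probes beyond that limit was not counted, so no excess among the members can be read from this. These figures say nothing of the spread between mice. Over all measured genes the median log2 ratio was 0.04 and the middle 50% ran from -0.14 to 0.21.

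Synthesis enzymes were lower in the Pnpla8-/- pool. Their median log2 ratio was -0.43, and 14 of 18 lay below 0, where 43.1% of all measured genes did. At least 1.5-fold lower were 7 of 18, against a background of 5.94%. These were Sqle, Idi1, Mvd, Cyp51, Hmgcs1, Nsdhl and Fdps. At least 2-fold lower were Sqle and Idi1, against a background of 1.85%. No member was at least 1.5-fold higher, where 4.42% of all genes were, or 2-fold higher (1.29%). The members were chosen with earlier results of these data known, so these shares describe the list and test nothing. The mevalonate steps had a median of -0.66 over 7 genes, the squalene and lanosterol steps -0.48 over 3, and the steps from lanosterol to cholesterol -0.21 over 8. In bulk tissue, fewer cells of a type and less RNA per cell cannot be told apart.

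**Figure D1:**
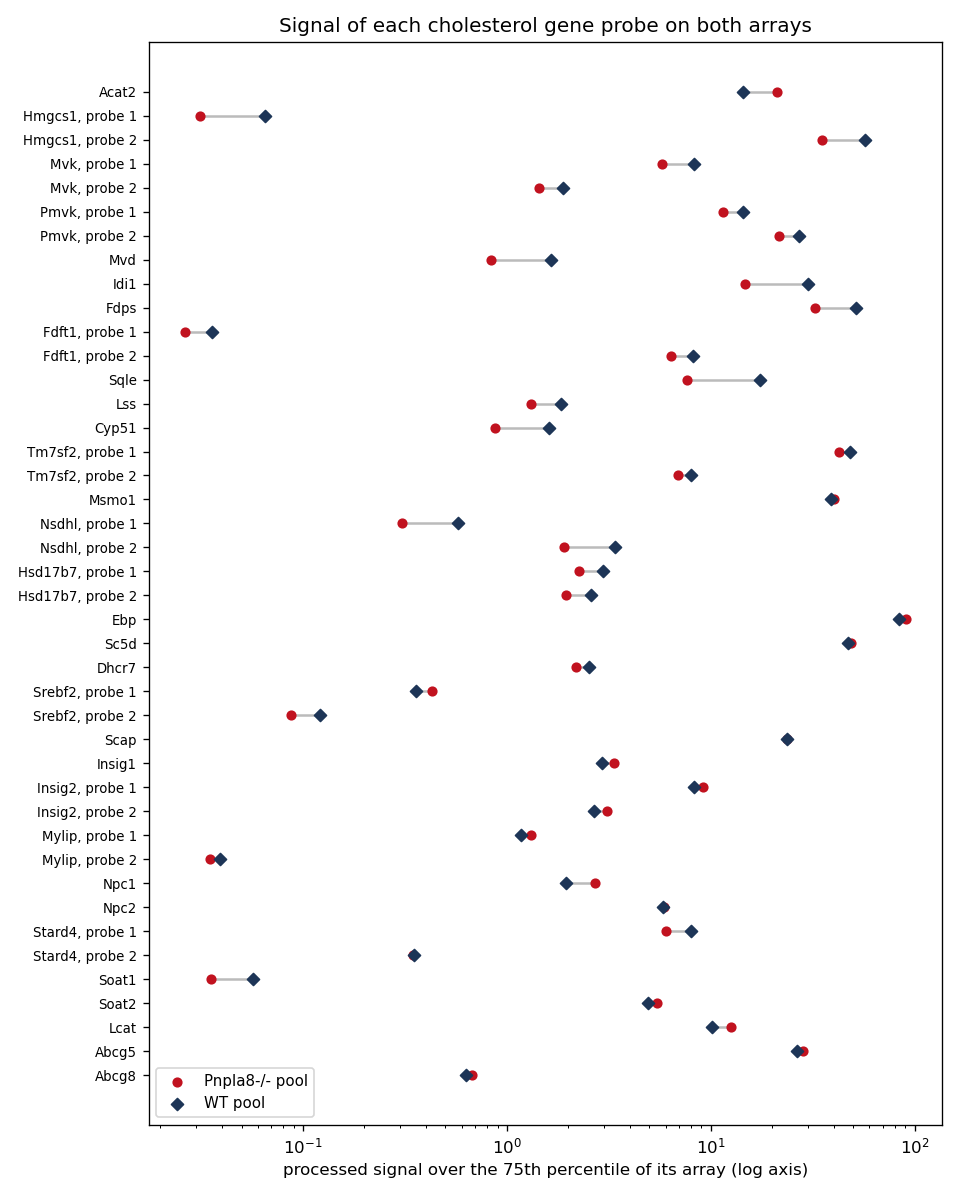
Relative signal of each of the 42 probes (signal over the 75th percentile of its array, log axis) in the Pnpla8-/- pool (red circles) and the WT pool (blue diamonds), with a grey line joining the values of 1 probe. Red circles lie left of the diamonds for most synthesis enzymes from Hmgcs1 to Nsdhl, the symbols nearly coincide for Scap and Npc2, and the order is reversed for Acat2 and Npc1.

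The route opens with Acat2, the cytosolic thiolase that joins acetyl-CoA units, and this was the only mevalonate-arm gene above 0. Its relative signal was 21.1 in the Pnpla8-/- pool and 14.5 in the WT pool, 1.46-fold higher. Median scaling of the arrays moved its log2 ratio to 0.60, past 1.5-fold. Acat3, a closely related thiolase gene, had a log2 ratio of 0.36, and how far each probe binds the other transcript was not tested. Hmgcs1, the synthase that makes the substrate of the mevalonate-forming step, had 2 probes. The bright probe read 35.3 in the Pnpla8-/- pool and 57.0 in the WT pool, 1.62-fold lower. The dim probe read 0.0312 in the Pnpla8-/- pool and 0.0654 in the WT pool, at 1.77 times the lowest signal well above background on the Pnpla8-/- array, and its log2 ratio was -1.07. Both lay on the lower side, and the gene's value was 1.84-fold lower.

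Mvk and Pmvk add phosphates to mevalonate, and each was lower by less than 1.5-fold. Mvk read 5.75 and 1.43 with its 2 probes in the Pnpla8-/- pool, against 8.28 and 1.88 in the WT pool, and its log2 ratio was -0.46. For Pmvk the 2 probes gave log2 ratios of -0.32 and -0.33, the closest pair among the mevalonate-arm genes. Mvd, the decarboxylase that makes isopentenyl diphosphate, read 0.839 in the Pnpla8-/- pool and 1.65 in the WT pool, 1.97-fold lower. Its probe lies on chromosome 8 from 124957750 to 124957809 in mm9, the build named in the array file. Idi1, the isomerase that makes the partner building block, read 14.7 in the Pnpla8-/- pool and 29.9 in the WT pool, 2.03-fold lower (mm9 chromosome 13 from 8891524 to 8891583). Median scaling brought its log2 ratio to -0.96, short of 2-fold. Fdps, which joins the units into farnesyl diphosphate, read 32.5 in the Pnpla8-/- pool and 51.5 in the WT pool, 1.58-fold lower. The array file places that probe on mm9 chromosome 10 from 93242421 to 93242480, while the RefSeq table of GRCm38.p6 lists Fdps on chromosome 3. How far a near-identical copy adds to the signal was not tested.

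At the squalene steps, Fdft1, squalene synthase, was lower with both probes, at log2 ratios of -0.37 and -0.44. The dimmer of its probes was 1.5 times the lowest signal well above background on the Pnpla8-/- array. The array file places the probes apart on mm9 chromosome 14, the bright one from 19364899 to 19364958 and the dim one from 63764562 to 63764621. The RefSeq table of GRCm38.p6 lists Fdft1 on chromosome 14 from 63145150 to 63181687. Although the builds differ, that is near the dim probe and far from the bright one. How far another copy adds to the bright signal was not tested. With a normexp background, which models the background under each spot, Fdft1 had -0.19. That setting also adds an offset of 50 to every spot, which by itself pulls the ratios of dim probes toward 0. Sqle, squalene epoxidase, a rate-limiting enzyme of the pathway, was the lowest of the 31 genes. It read 7.61 in the Pnpla8-/- pool and 17.4 in the WT pool, 2.28-fold lower (mm9 chromosome 15 from 59162688 to 59162747). It ranked 182 from the lowest of 19971 measured genes, and was at least 2-fold lower under all 13 alternative settings. Lss, which closes squalene epoxide into lanosterol, read 1.32 in the Pnpla8-/- pool and 1.84 in the WT pool, 1.39-fold lower.

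Between lanosterol and cholesterol the enzymes split. Cyp51, the demethylase that acts first, read 0.870 in the Pnpla8-/- pool and 1.62 in the WT pool, 1.86-fold lower (mm9 chromosome 5 from 4081471 to 4081530). Nsdhl, a dehydrogenase of the later demethylation, was lower with both probes. One probe read 1.90 in the Pnpla8-/- pool and 3.37 in the WT pool, and the other 0.307 in the Pnpla8-/- pool and 0.574 in the WT pool, so that the gene was 1.82-fold lower. Hsd17b7, the ketoreductase that follows, had log2 ratios of -0.38 and -0.40 with its 2 probes.

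The remaining enzymes of that stretch differed little. Tm7sf2, a sterol C14 reductase, had a log2 ratio of -0.20 and Dhcr7, which makes cholesterol from its last precursor, -0.21. Msmo1, the methyl oxidase that works beside Nsdhl, read 40.2 in the Pnpla8-/- pool and 38.7 in the WT pool, with a log2 ratio of 0.05. Sc5d, the sterol desaturase, had 0.06, and Ebp, the sterol isomerase, 0.11. Msmo1, Sc5d and Ebp turned to values below 0 with quantile, loess or no scaling, so their direction is not settled. Msmo1 and Nsdhl serve the same demethylation, and their log2 ratios were 0.05 and -0.86.

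**Figure D2:**
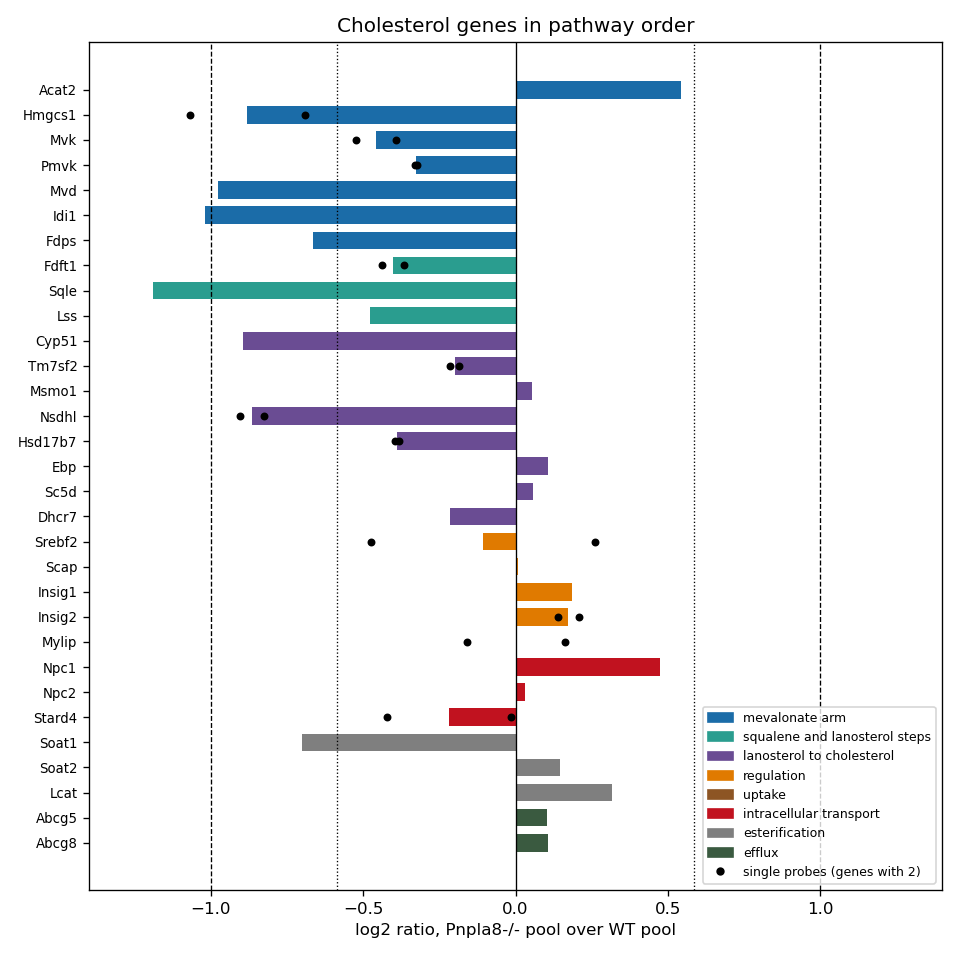
Log2 ratio of Pnpla8-/- over WT for the 31 genes in pathway order, coloured by role, with black points for single probes of the 11 genes that have 2; dotted lines mark 1.5-fold and dashed lines 2-fold. Sqle (-1.19) and Idi1 (-1.02) reach the 2-fold line, while the regulators, Mylip, Npc2, Soat2 and the efflux genes stay inside the 1.5-fold lines.

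RefSeq promoters of GRCm38.p6 were available for 25 of the 31 genes, and 250 bases upstream of each listed start were searched on both strands. Sqle, Fdps, Fdft1, Stard4, Npc1 and Soat2 had no entry, so the lowest member, Sqle, was not searched. The sterol regulatory element was spelled TCACNCCAC, a form of the site that SREBP proteins bind, and CCAAT is the box bound by NF-Y, a factor that works with SREBP. The first was found in 1 member, Hmgcs1, and in 1.22% of all 27025 genes with a promoter entry. The second was found in 14 of 15 synthesis genes, in 8 of 10 other members and in 37.5% of all genes. A match is a description of letters and not a binding site, and other spellings of either site were not searched. Below are Idi1, Mvd and Cyp51, the members with an entry that lay furthest below 0, a choice made after their values were seen. Hmgcs1 is shown for its element, and Mylip and Scap for log2 ratios nearest to 0. Capitals mark the searched element or a CCAAT box, which reads ATTGG on the other strand.

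Idi1 (chr13:8885356-8885605, + strand): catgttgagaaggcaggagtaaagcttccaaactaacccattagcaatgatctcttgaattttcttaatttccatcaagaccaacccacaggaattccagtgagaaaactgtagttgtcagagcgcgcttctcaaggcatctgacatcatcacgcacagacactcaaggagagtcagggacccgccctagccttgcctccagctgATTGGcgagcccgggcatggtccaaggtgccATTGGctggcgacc

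Mvd (chr8:122443423-122443672, - strand): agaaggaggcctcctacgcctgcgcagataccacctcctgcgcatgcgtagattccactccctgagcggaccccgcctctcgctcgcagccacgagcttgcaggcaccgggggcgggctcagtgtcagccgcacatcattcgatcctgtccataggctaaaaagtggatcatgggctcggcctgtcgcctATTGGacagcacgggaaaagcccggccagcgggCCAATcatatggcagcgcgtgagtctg

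Cyp51 (chr5:4104698-4104947, - strand): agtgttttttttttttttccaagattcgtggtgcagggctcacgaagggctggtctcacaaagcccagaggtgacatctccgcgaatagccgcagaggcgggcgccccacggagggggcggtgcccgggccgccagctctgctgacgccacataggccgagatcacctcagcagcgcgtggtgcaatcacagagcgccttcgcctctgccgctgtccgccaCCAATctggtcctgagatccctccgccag

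Hmgcs1 (chr13:119690101-119690350, + strand): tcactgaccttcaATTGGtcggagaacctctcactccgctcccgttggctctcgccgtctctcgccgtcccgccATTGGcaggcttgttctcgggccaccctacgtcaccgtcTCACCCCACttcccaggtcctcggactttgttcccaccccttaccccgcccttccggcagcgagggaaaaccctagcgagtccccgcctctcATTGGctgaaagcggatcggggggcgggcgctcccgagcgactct

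Mylip (chr13:45389492-45389741, + strand): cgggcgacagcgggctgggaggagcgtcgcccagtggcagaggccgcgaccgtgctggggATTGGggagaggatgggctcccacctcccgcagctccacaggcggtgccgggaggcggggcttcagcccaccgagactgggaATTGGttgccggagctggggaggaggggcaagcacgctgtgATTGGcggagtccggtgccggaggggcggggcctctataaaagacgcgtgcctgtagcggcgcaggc

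Scap (chr9:110333038-110333287, + strand): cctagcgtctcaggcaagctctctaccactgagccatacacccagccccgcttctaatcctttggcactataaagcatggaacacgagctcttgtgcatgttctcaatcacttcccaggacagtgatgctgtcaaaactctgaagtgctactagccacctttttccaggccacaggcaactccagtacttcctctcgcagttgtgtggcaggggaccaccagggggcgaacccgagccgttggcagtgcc

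Counted from the start site, the element of Hmgcs1 spans -137 to -129. The CCAAT box of Hmgcs1 nearest to that element spans -176 to -172, and the one nearest to the start -45 to -41. The CCAAT boxes nearest the start spanned -14 to -10 in Idi1, -27 to -23 in Mvd and -29 to -25 in Cyp51. Mylip, at a log2 ratio of 0.00, held 3 such boxes, so the box was also present in a gene with little difference. Scap held neither the element nor a CCAAT box in the window shown.

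Among the regulators none was 1.5-fold apart. For Srebf2 the 2 probes disagreed: one read 0.429 in the Pnpla8-/- pool and 0.358 in the WT pool, the other 0.0869 in the Pnpla8-/- pool and 0.121 in the WT pool. Their log2 ratios were 0.26 and -0.47, and the gene's -0.11 has no settled direction. Scap, the escort protein, read 23.7 in the Pnpla8-/- pool and 23.6 in the WT pool. Insig1 and Insig2 hold the SREBP precursor in the endoplasmic reticulum, and Insig1 is itself a known SREBP target. Insig1 read 3.34 in the Pnpla8-/- pool and 2.94 in the WT pool. Its log2 ratio of 0.18 was smaller than the error of 0.20 that the scanner software gives for its probe. Insig2 had 0.14 and 0.21 with its 2 probes. Both Insig genes turned to values below 0 without scaling, at -0.061 and -0.072.

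Mylip, a ubiquitin ligase that marks lipoprotein receptors for degradation, stood for uptake. Its bright probe read 1.31 in the Pnpla8-/- pool and 1.17 in the WT pool. The dim one read 0.0352 in the Pnpla8-/- pool and 0.0393 in the WT pool, and their log2 ratios were 0.16 and -0.16. Among the transport genes, Npc1, the lysosomal membrane protein that exports cholesterol, read 2.71 in the Pnpla8-/- pool and 1.95 in the WT pool, 1.39-fold higher. Npc1 was higher under all 13 alternative settings, at log2 ratios from 0.23 to 0.53. Its partner Npc2, which hands cholesterol to it inside the lysosome, read 5.92 in the Pnpla8-/- pool and 5.80 in the WT pool. Stard4, a cytosolic sterol carrier and SREBP target, had -0.42 with its bright probe and -0.02 with the other.

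The esterification genes did not move together. Soat1, the sterol acyltransferase found in macrophages and many tissues, read 0.0352 in the Pnpla8-/- pool and 0.0572 in the WT pool, 1.62-fold lower. Its 1 probe stood at 2 times the lowest signal well above background on the Pnpla8-/- array, and with the normexp background its log2 ratio was -0.16. Kupffer cell markers were lower in the same pool. All 8, with log2 ratios from -1.34 to -0.82, were at least 1.5-fold lower, where 5.94% of all measured genes were. The summed relative signal of these markers was 37.7 in the Pnpla8-/- pool and 80.9 in the WT pool. Such a sum is weighted toward bright probes, and Cd5l alone gave 17.1 in the Pnpla8-/- pool and 39.7 in the WT pool. The 3 probes of Csf1r disagreed in size, with log2 ratios from -0.96 to -0.17. Their part in the Soat1 value was not tested. Soat2, the acyltransferase of hepatocytes and intestine, read 5.45 in the Pnpla8-/- pool and 4.93 in the WT pool. Lcat, the enzyme secreted by the liver that esterifies cholesterol in plasma lipoproteins, read 12.6 in the Pnpla8-/- pool and 10.1 in the WT pool, 1.25-fold higher.

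Abcg5 and Abcg8 form the pump that moves sterols into bile. Abcg5 read 28.3 in the Pnpla8-/- pool and 26.4 in the WT pool, and Abcg8 0.678 in the Pnpla8-/- pool and 0.630 in the WT pool. Their log2 ratios were 0.10 and 0.11. Abcg5 had -0.020 with quantile scaling and both lay below 0 without scaling, so no direction is given. The 13 members outside synthesis had a median log2 ratio of 0.10. Only 1, the dim Soat1, was at least 1.5-fold lower, where 5.94% of all measured genes were. None was at least 1.5-fold higher, where 4.42% of all measured genes were.

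**Figure D3:**
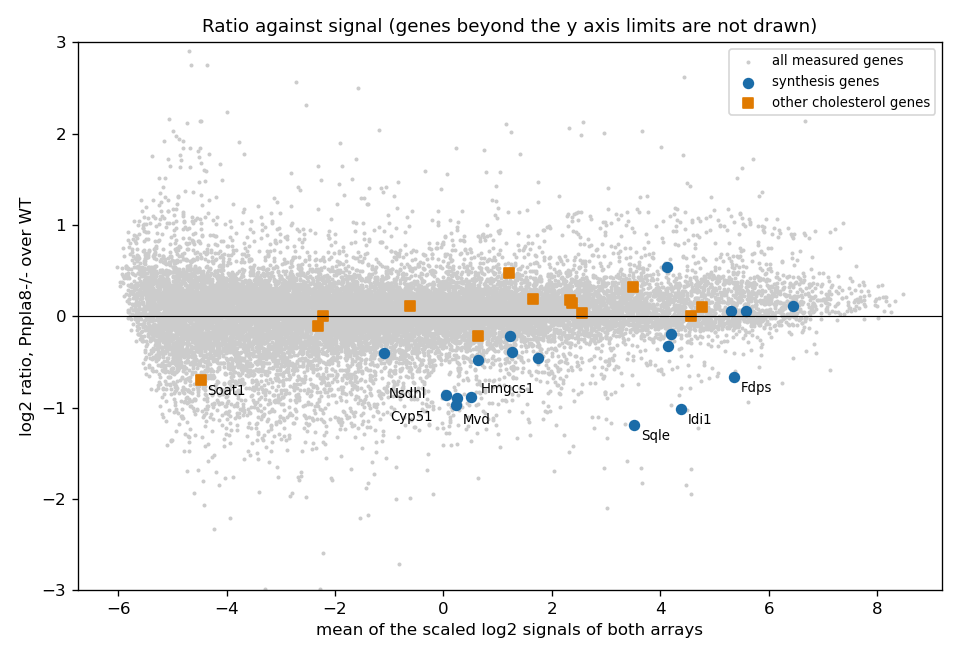
Log2 ratio of Pnpla8-/- over WT against the mean scaled log2 signal of both arrays, for 19971 measured genes (grey), synthesis genes (blue circles) and other cholesterol genes (orange squares); genes with 2 probes are placed at the middle of both. The synthesis genes at least 1.5-fold lower have mid to high signal, and Soat1 lies at the dim end.

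Among probes well above background on both arrays, the share at least 1.5-fold lower did not follow brightness in 1 direction. It was 2.65% for a WT processed signal from 20 to 50, 8.51% from 50 to 100, 9.46% from 100 to 500, 5.21% from 500 to 5000 and 2.45% at 5000 or more. The lowest signal well above background on the Pnpla8-/- array was 17.9. Dim probes that fell under it were not counted, so the share from 20 to 50 cannot show how often dim probes were lower. From 500 to 5000 lay 14 of the 42 member probes, among them those of Mvd and Cyp51. At 5000 or more lay 21 of the 42 member probes, among them those of Sqle, Idi1 and Fdps. With the normexp background, Hmgcs1 and Soat1 no longer reached 1.5-fold.

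Other cell types were checked with marker lists. Of all measured genes, 5.94% were at least 1.5-fold lower, 4.42% at least 1.5-fold higher and 43.1% below 0. Sums of relative signal are weighted toward bright probes, so they do not weigh the genes of a list equally. All 10 hepatocyte markers had log2 ratios above 0, from 0.08 to 1.32, and 3 were at least 1.5-fold higher (Tat 1.32, Cps1 0.99 and Tdo2 0.80). They had a summed relative signal of 1689 in the Pnpla8-/- pool and 1419 in the WT pool. Lymphocyte markers summed to 5.36 in the Pnpla8-/- pool and 12.3 in the WT pool, and 5 of 6 were at least 1.5-fold lower. Cd74 alone gave 3.22 in the Pnpla8-/- pool and 8.61 in the WT pool, so that sum mostly shows Cd74. Macrophages also express Cd74, so the sum cannot be read as a measure of lymphocytes. The 2 T cell genes differed, with log2 ratios of -1.35 for Cd3d and -0.06 for Cd3e. Of 6 endothelial markers, 4 lay below 0, with a median log2 ratio of -0.28, and Lyve1 was at least 1.5-fold lower (-0.66). Their sum was 23.0 in the Pnpla8-/- pool and 24.7 in the WT pool. Of 6 stellate cell markers, 5 lay below 0, with a median of -0.36, and Acta2 (-1.01) and Timp1 (-0.91) were at least 1.5-fold lower. Timp1 was dim, with relative signals of 0.0343 in the Pnpla8-/- pool and 0.0645 in the WT pool. The 6 stellate cell markers summed to 45.1 in the Pnpla8-/- pool and 44.7 in the WT pool. Dcn alone gave 43.7 in the Pnpla8-/- pool and 42.6 in the WT pool, so the sum does not show the other 5. Cholangiocyte markers summed to 0.895 in the Pnpla8-/- pool and 0.955 in the WT pool, of which Spp1 alone gave 0.616 and 0.665. All markers on these lists were measured on both arrays. The part of cell makeup in the synthesis values was not tested.

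Other genes of sterol handling lay near the array as a whole. Of 25 such genes, 24 were measured, with a median log2 ratio of 0.08. None was at least 1.5-fold lower, where 5.94% of all measured genes were, and 1 was at least 1.5-fold higher (4.42%). That gene was Vldlr, a lipoprotein receptor, at 0.737 in the Pnpla8-/- pool and 0.278 in the WT pool, 2.66-fold higher and higher with each of its 2 probes. Srebf1, the SREBP gene linked to fatty acid synthesis, named here after its value was seen, had -0.58, just short of 1.5-fold. It passed 1.5-fold with quantile scaling (-0.63), with loess (-0.63), without scaling (-0.83) and relative to the median of all genes (-0.62). Ch25h, cholesterol 25-hydroxylase, was well above background in the WT pool alone.

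Neighbouring routes differed in both directions. For scale, 5.94% of all measured genes were at least 1.5-fold lower and 4.42% at least 1.5-fold higher. Of 15 fatty acid synthesis genes, 5 were at least 1.5-fold lower and none higher, with a median of -0.29. Fasn, fatty acid synthase, had -1.30, Elovl6, an elongase, -0.97, the malic enzyme Me1 -0.78, Acly, which supplies cytosolic acetyl-CoA, -0.69 and Acaca, which makes malonyl-CoA, -0.63. Acaca fell short of 1.5-fold with median scaling (-0.57) and normexp (-0.53), and Acly with the brightest probe (-0.53). Of 12 bile acid synthesis genes, 3 were at least 1.5-fold higher and none lower, with a median of 0.16. These were Cyp7a1, which starts bile acid synthesis from cholesterol, at 0.89, Cyp8b1, the sterol 12-alpha-hydroxylase, at 0.86, and Akr1d1, a steroid reductase, at 0.68. The list's median has no settled direction: it was 0.013 with quantile scaling, 0.057 with loess and -0.081 without scaling, where Akr1d1 had 0.44. The Cyp7a1 probe read 10.8 in the Pnpla8-/- pool and 5.81 in the WT pool. The difference between these lists and the cholesterol synthesis genes was not tested, since each pool was measured once.

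**Figure D4:**
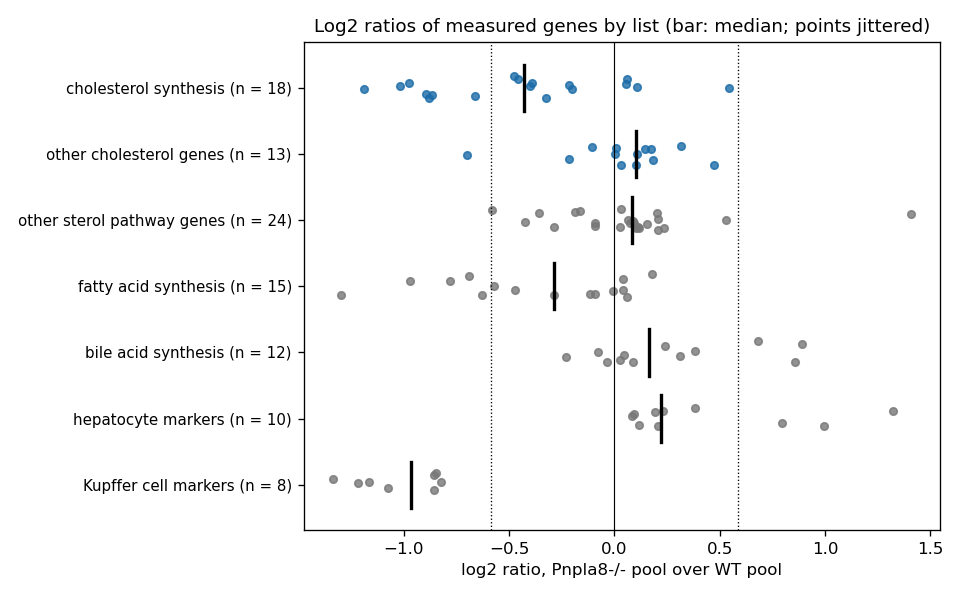
Log2 ratios of Pnpla8-/- over WT for the measured genes of 7 lists (points, jittered vertically), with the median of each as a black bar and dotted lines at 1.5-fold. Cholesterol synthesis genes (median -0.43) and fatty acid synthesis genes (-0.29) lie mostly left of 0, bile acid synthesis genes have a median of 0.16 that turns to -0.081 without scaling, and Kupffer cell markers lie left of -0.82.

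**Figure D5:**
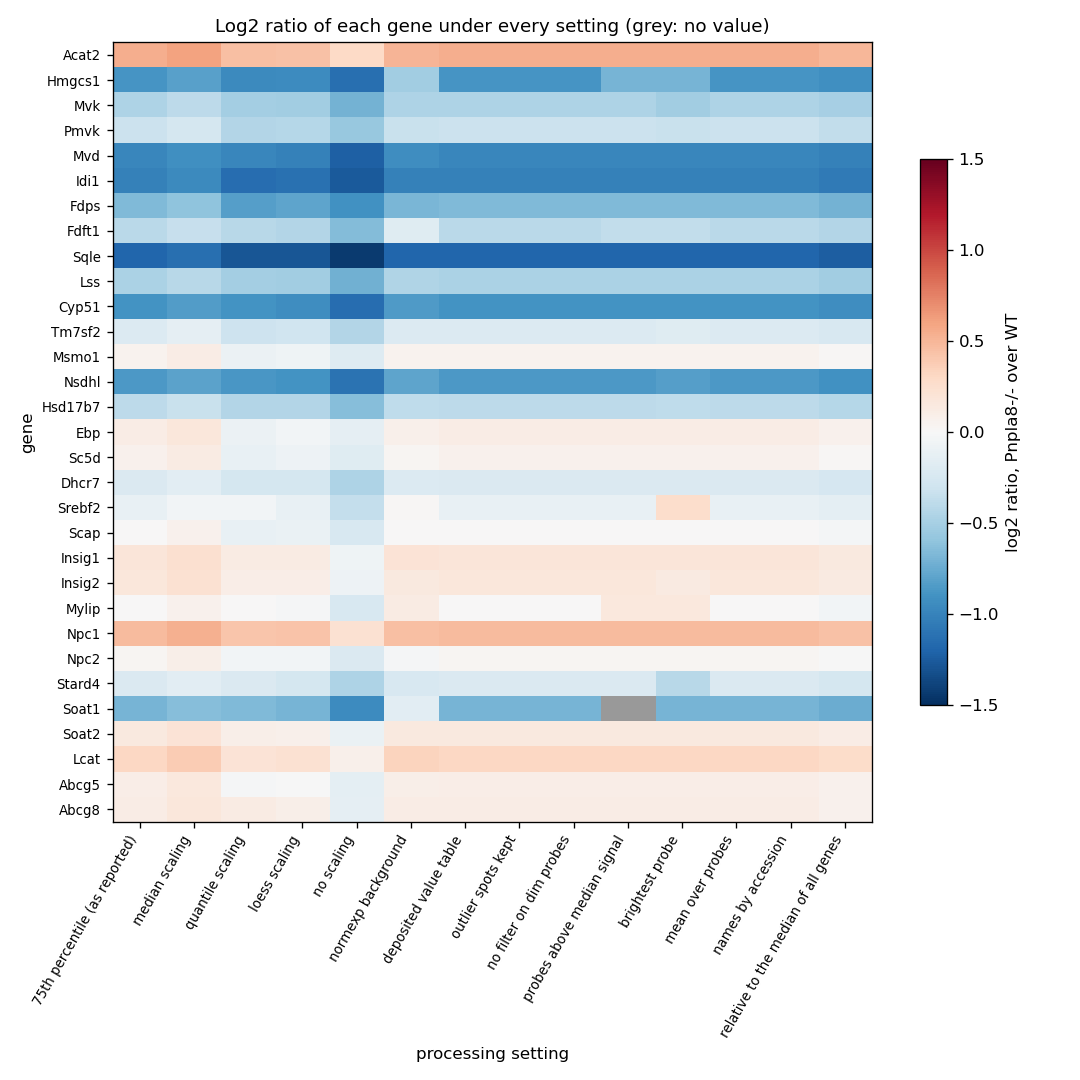
Log2 ratio of Pnpla8-/- over WT for each of the 31 genes (rows) as reported and under 13 alternative settings (columns), in colour from blue (lower) to red (higher). Mvd, Idi1, Fdps, Sqle, Cyp51 and Nsdhl are blue in every column, Acat2, Npc1 and Lcat are red in every column, and the column without scaling is shifted toward blue. Soat1 has no value in the column of probes above the median signal.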

How the data were processed

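Liver RNA was hybridised to 2 one-colour Cy3 arrays, 1 per genotype. Per the file headers, the authors extracted spot intensity with Agilent Feature Extraction (version 11.5.1.1 in the submitters' processing notes). The deposited scanner files hold that intensity on a linear scale, background-subtracted and spatially detrended, with probe coordinates in mm9. The deposited value table holds the same intensity divided by 1 constant per array, 1019 for Pnpla8-/- and 1207 for WT. It is linear and not centred by gene, with column medians of 0.0763 for Pnpla8-/- and 0.0800 for WT. The labels do not state how the constant was chosen. The number of unused per-sample columns was 0.

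From the scanner files, the log2 of the processed signal was taken, less the 75th percentile of the array. Control spots did not enter, nor did spots that the scanner software marked as outliers (170 on the Pnpla8-/- array and 119 on the WT array). Spots of a probe were averaged, and a gene's log2 ratio is the median over its probes that were well above background on both arrays. Genes were matched by the name in the files. Each of the 31 members was measured, so no bound was needed for them. Members, gene lists and thresholds of 1.5-fold and 2-fold were chosen with earlier results of these data known. All members are named, with the genes at least 1.5-fold apart of the other sterol, fatty acid and bile acid lists (at most 6 a list). Single cell type markers were named after their values were seen. Promoters follow a rule of at most 6 with the sterol element plus the 2 members nearest 0, and 3 more were added after the values were seen.

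The alternatives were median, quantile, loess (span 0.3) and no scaling, a normexp background (offset 50), the value table, other probe filters and summaries, and names by accession (28326 probes named). Ratios relative to the median of all genes were added after the data were seen. The script was also tested on simulated data with planted ratios, and recovered them. Python 3.11.15, pandas 2.3.3, numpy 2.4.6, statsmodels 0.14.6, limma 3.58.1 and R 4.3.3 were used.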

Additional observations from a re-analysis of the deposited data

How the results depend on the processing

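With 1 array per genotype no replicate could be left out. No paired analysis was possible because each group has 1 array. Setting genes at a bound changed nothing for the members, since all were measured. The median of all genes was 0.04 as reported, 0.10 with median scaling and -0.21 without scaling, so values without scaling are best read against that shift. The median log2 ratio of the synthesis genes ran from -0.48 to -0.37 under every alternative except no scaling, where it was -0.68. The other members had a median of -0.010 with loess and -0.14 without scaling. Members at least 2-fold lower numbered 1 with median scaling (1.53% of all genes) and 6 without scaling (3.81%). Members at least 1.5-fold lower ran from 6 with normexp (2.91% of all genes) to 12 without scaling (12.2%), and 6 genes (Mvd, Idi1, Fdps, Sqle, Cyp51 and Nsdhl) kept that size in all 13 alternatives. Synthesis genes below 0 numbered 14 with median scaling, where 33.8% of all genes were, and 17 with quantile scaling (44.4%), loess (48.7%) and no scaling (79.4%). None of the 8 members at least 1.5-fold lower changed sign, with Soat1 lacking a value among probes above the median signal. Cell type markers were not run under the alternatives. The precision is limited by the number of arrays. Signal over background limits Soat1, the stellate cell marker Timp1 and the dim probes of Hmgcs1, Fdft1, Mylip and Srebf2.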
